A study of Homo sapiens with 9 samples.

Results

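miR-31 and miR-135 are microRNAs (miRNAs) that are commonly reported at raised levels in colorectal carcinoma, and their mature forms were followed here through HCT116 cells and a pair of drug-resistant sublines. The members were the entries of the deposited count table named hsa-miR-31-5p, hsa-miR-31-3p, hsa-miR-135b-5p, hsa-miR-135b-3p and hsa-miR-135a-5p, which makes 5 of the 1198 mature miRNAs listed. They were chosen by name and not by their values, though with earlier results of these data known. HCT116 is an established human colorectal carcinoma line and served as the untreated parental control. The subline HCT-Oxa-c was kept continuously under rising doses of oxaliplatin, a platinum compound that crosslinks DNA, and the subline HCT-FU-c likewise under 5-fluorouracil, an antimetabolite that blocks thymidylate synthesis. Each line gave 3 biological replicates of total RNA, so 9 small RNA libraries were compared, and each drug was represented by 1 subline, so that a difference between lines cannot be told apart from a difference between this subline and another selected in the same way. For the culture medium the labels give an RPMI medium and the study's methods give DMEM.

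A miRNA is cut from a hairpin in a longer transcript, first by Drosha and then by Dicer, and the 5p and 3p names stand for the arms of that hairpin. One arm is usually kept in an Argonaute protein as the guide, whose bases 2 to 8, the seed, pair with target mRNAs and lower their translation and stability, while the other arm is mostly degraded. miR-31 is made in a variety of epithelia and is known as a negative regulator of RASA1, a brake on RAS signalling, and miR-135a and miR-135b are known to act on the mRNA of APC, the tumour suppressor of the WNT pathway that is lost in most colorectal carcinomas.

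The mature sequences are shown because they decide which members can share targets and which could exchange reads. Of the 5 members 4 had a mature sequence in RefSeq (GRCh38.p14 table), given 5′ to 3′ with the seed in capitals:
hsa-miR-31-5p: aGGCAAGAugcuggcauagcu
hsa-miR-135b-5p: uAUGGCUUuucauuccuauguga
hsa-miR-135a-5p: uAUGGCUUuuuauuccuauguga
hsa-miR-135b-3p: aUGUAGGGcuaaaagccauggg

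miR-135a-5p and miR-135b-5p carried the same seed, and over their 23 bases they differed at 1 position, C11U, counted from the 5′ end with the base of miR-135b-5p first. Their counts are therefore separated by a single base. The seed of miR-135b-3p was shared with miR-135a-2-3p, which is not among the listed miRNAs, and that of miR-31-5p with no other human miRNA of RefSeq. The table of listed miRNAs and RefSeq had 1059 of 1198 names in common.

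The hairpins show where the mature arms held in RefSeq lie, which are in capitals, miR-31-5p in MIR31 and both arms in MIR135B:
MIR31: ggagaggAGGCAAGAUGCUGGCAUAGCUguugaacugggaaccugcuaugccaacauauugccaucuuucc
MIR135B: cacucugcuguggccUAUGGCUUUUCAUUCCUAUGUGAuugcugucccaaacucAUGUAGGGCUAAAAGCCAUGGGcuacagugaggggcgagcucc

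MIR31 lies on the minus strand of chromosome 9 (21512115 to 21512185, GRCh38), in intron 1 of MIR31HG-201, a long noncoding RNA of the same strand. MIR135B lies on the minus strand of chromosome 1 (205448302 to 205448398), in intron 1 of transcripts of LEMD1, a protein-coding gene of the same strand. miR-135a-5p can come from MIR135A1 on chromosome 3 (52294219 to 52294308, minus strand, intron 1 of GLYCTK-AS1) and from MIR135A2 on chromosome 12 (97563812 to 97563911, plus strand, an intron of the noncoding RMST), since its 23 bases occur in both hairpins, so its counts cannot be assigned to either. None of the 4 hairpins had another annotated hairpin of the same strand within 10 kb in GENCODE 29, so each stands outside the polycistronic miRNA clusters.

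The libraries held between 856383 and 2207538 counts, of which miR-21-5p took 40.0% to 57.1%. Levels are given as CPM, counts scaled to a common library size by TMM. This is a trimmed mean of log ratios between libraries, taken over the miRNAs that passed a filter on low counts. On this scale 3 counts, the limit below which a count was not told apart from 0, corresponded to 1.34 to 4.01 CPM. The counts are PCR reads and not molecules, so this limit and the intervals of shares cover counting error only. Replicate 3 was the shallowest library of each line and stood apart from replicates 1 and 2. The chi-square per degree of freedom between replicates of a line was 11.97 to 112 for replicates 1 and 2 and 220.2 to 484 for pairs with replicate 3. Markers of epithelium, the miR-200 family with miR-141-3p and miR-429, were all present (5 of 5) and summed to 19401 to 25895 CPM. Markers of intestinal epithelium (miR-192-5p, miR-194-5p and miR-215-5p) summed to only 114 to 243 CPM, with miR-215-5p at 1 to 18 counts per library. Those of blood cells summed to 1.57 to 16.4 CPM, with 1 of 4 never above 3 counts, those of stroma and muscle (3 of 4 listed) to 177 to 682 CPM and those of endothelium (2 of 2) to 512 to 1090 CPM, in overlapping ranges in the 3 lines. All libraries came from cultures of HCT116 and its sublines. The source of the counts for markers of other cells, and any part of it in the members' values, was not tested.

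The members spanned more than 3 orders of magnitude and kept their order in every line. miR-31-5p was the most abundant, with 68144 counts in all, and stood between rank 23 and 32 of the 1198 miRNAs in every library. miR-135b-5p followed with 18952 counts and ranks 48 to 60. The passenger arms were far lower, miR-31-3p with 413 counts (ranks 170 to 232) and miR-135b-3p with 155 counts (ranks 248 to 416). miR-135a-5p reached 15 counts over the 9 libraries and did not pass the filter on low counts, which kept 367 miRNAs and 4 of the 5 members. The CPM ranges of miR-31-5p, miR-135b-5p and miR-31-3p over the 9 libraries were well separated, whereas miR-31-3p in its lowest libraries (21.4 CPM) lay close to miR-135b-3p in its highest (19.5 CPM). Since adapters join different miRNAs with different efficiency, this order of counts is that of the libraries and need not be that of the cells.

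**Figure D1:**
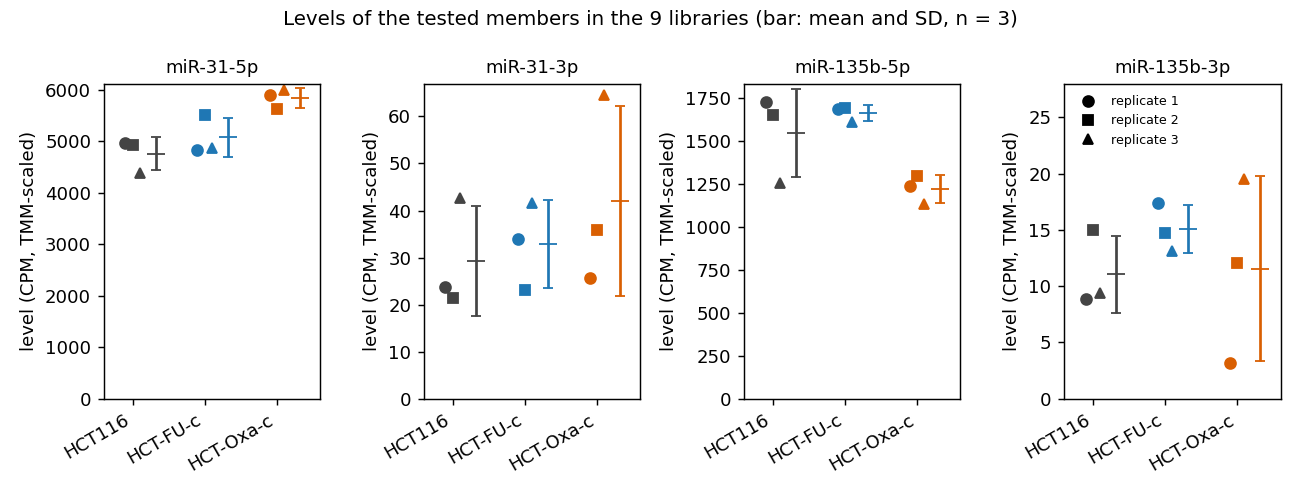
Level of the 4 tested members (vertical axis, CPM after TMM scaling, from 0) in the 3 lines (horizontal axis), with 1 symbol per replicate number and the mean and SD of n = 3 as a bar to the right. With this scaling miR-31-5p in HCT-Oxa-c lies above both other lines (with total counts it overlaps HCT-FU-c), miR-135b-5p in HCT-Oxa-c lies below every HCT-FU-c library, and miR-31-3p is highest in replicate 3 of every line.

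miR-31-5p, the guide arm of MIR31, was present at a similar high level in all 3 lines. Its replicates 1, 2 and 3 gave 4959, 4919 and 4387 CPM in HCT116, 4834, 5510 and 4874 CPM in HCT-FU-c, and 5894, 5626 and 5999 CPM in HCT-Oxa-c. All 3 HCT-Oxa-c libraries were higher than every library of HCT116 and of HCT-FU-c, while the latter lines overlapped. The means were 4755 ± 319, 5073 ± 379 and 5840 ± 192 CPM (SD, n = 3 each). In edgeR's quasi-likelihood test, fitted over all 367 miRNAs with the line as factor and adjusted by Benjamini-Hochberg, the log2 fold change of HCT-Oxa-c versus HCT116 was 0.30 (SE 0.18, 95% interval -0.11 to 0.71, adjusted p = 0.696). A 1.23-fold difference was thus estimated, with bounds of 0.924 and 1.63, and it did not pass the threshold of 0.05. With the replicate block the interval was 0.0046 to 0.59 (unadjusted p = 0.0468, adjusted p = 0.189 in edgeR's test). Against HCT-FU-c the log2 fold change was 0.20 (interval -0.21 to 0.61, edgeR adjusted p = 0.677), and HCT-FU-c versus HCT116 gave 0.093 (interval -0.32 to 0.50, adjusted p = 0.997). The gap between HCT-Oxa-c and HCT-FU-c closed when total counts replaced TMM, whereas that between HCT-Oxa-c and HCT116 was present under all 4 scalings tried.

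miR-135b-5p, the guide arm of MIR135B, went the other way in HCT-Oxa-c. Its level was 1728, 1652 and 1254 CPM in HCT116, 1682, 1690 and 1607 CPM in HCT-FU-c, and 1238, 1294 and 1131 CPM in HCT-Oxa-c. Every HCT-Oxa-c library was below every HCT-FU-c library under all 4 scalings, while HCT116 reached from one to the other because its replicate 3 was as low as HCT-Oxa-c. The means were 1545 ± 254, 1660 ± 46.3 and 1221 ± 82.6 CPM (SD, n = 3 each). HCT-Oxa-c versus HCT-FU-c had a log2 fold change of -0.44 (SE 0.21, interval -0.91 to 0.024), a ratio of 0.736, with an unadjusted p = 0.0605 and an adjusted p = 0.326 in edgeR's test. The correlations between libraries set replicate 3 apart from replicates 1 and 2 but did not pair numbers 1 and 2 across lines. With the replicate number as a block, the estimate was -0.45 (interval -0.74 to -0.15) and its edgeR adjusted p = 0.0243 passed the threshold. That was the single call among the members in any comparison, and DESeq2 with the same block gave an adjusted p of 0.0883. Using replicates 1 and 2 alone the log2 fold change was -0.34 (adjusted p = 0.188 in edgeR).

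Against HCT116 the log2 fold change of miR-135b-5p in HCT-Oxa-c was -0.34 (SE 0.21, interval -0.81 to 0.13, edgeR adjusted p = 0.696). Leaving out HCT116 replicate 3 gave -0.49, and leaving out HCT116 replicate 1 or HCT-Oxa-c replicate 3 gave -0.22. The block narrowed the interval to -0.63 to -0.037, without a call after adjustment (adjusted p = 0.136 in edgeR's test). For HCT-FU-c versus HCT116 it was 0.10 (interval -0.36 to 0.57, adjusted p = 0.997). That sign rested on HCT116 replicate 3, without which the estimate was -0.023, and with replicates 1 and 2 alone it was -0.055.

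The 3p arms were measured with few counts and a wide spread. miR-31-3p was counted 35, 30 and 32 times in HCT116, 45, 44 and 35 times in HCT-FU-c, and 49, 80 and 63 times in HCT-Oxa-c. On the CPM scale these were 23.8, 21.4 and 42.7, then 34.0, 23.1 and 41.7, and 25.7, 35.8 and 64.6. Replicate 3 gave the highest level in each line, and the 3 lines overlapped. Means were 29.3 ± 11.7, 32.9 ± 9.33 and 42.0 ± 20.2 CPM (SD, n = 3 each). HCT-Oxa-c versus HCT116 had a log2 fold change of 0.52 with an interval of -0.46 to 1.51 (edgeR adjusted p = 0.875). That value was 0.16 without HCT-Oxa-c replicate 3, 0.81 without HCT-Oxa-c replicate 1 and 0.85 without HCT116 replicate 3.

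miR-135b-3p was counted 13, 21 and 7 times in HCT116, 23, 28 and 11 times in HCT-FU-c, and 6, 27 and 19 times in HCT-Oxa-c. Its mean levels were 11.1 ± 3.42, 15.1 ± 2.16 and 11.6 ± 8.18 CPM in the same order (SD, n = 3 each). The lowest and the highest library (3.14 and 19.5 CPM) both belonged to HCT-Oxa-c. Relative to HCT116, HCT-Oxa-c had a log2 fold change of 0.012 (interval -1.36 to 1.39, edgeR adjusted p = 1.00) and HCT-FU-c one of 0.44 (interval -0.89 to 1.77, adjusted p = 0.997), so that changes of more than 2-fold either way lay within the former interval.

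Set against the whole table, no tested member was called with the line as the factor. With the line as factor, 2.45% of the tested miRNAs were called in HCT-Oxa-c versus HCT116 and 4.36% in HCT-Oxa-c versus HCT-FU-c, and 0 of 4 tested members were. For HCT-FU-c versus HCT116 the share was 0% (0 of 367, with 15 at an unadjusted p below 0.05 in edgeR and 4 called by DESeq2), and no member was called by either tool. In edgeR's fit no member had an unadjusted p below 0.05 in these 3 comparisons. In DESeq2 miR-31-5p had unadjusted p-values of 0.0242 for HCT-Oxa-c versus HCT116 and 0.0452 versus HCT-FU-c, with adjusted p of 0.226 and 0.243. With the block the shares were 14.7%, 5.45% and 26.4% for HCT-Oxa-c versus HCT116, HCT-FU-c versus HCT116 and HCT-Oxa-c versus HCT-FU-c, and the members called were 0, 0 and 1 of 4. The libraries of 2 lines did not overlap for 16.1%, 8.72% and 22.9% of the tested miRNAs and for 1, 0 and 2 of the 4 members, in the same order of comparisons. With 4 members, such counts are too small to be set apart from these backgrounds.

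What set miR-31-5p and miR-135b-5p apart from most miRNAs was the closeness of their replicates, on average over the lines. The coefficient of variation (CV) within a line, averaged over the 3 lines, was 5.83% for miR-31-5p, the lowest of all 367 tested miRNAs, whose median was 38.1%. miR-135b-5p had a CV of 8.67%, and 5 of 367 miRNAs were lower. That average covered unequal lines, with 16.5% in HCT116, 2.79% in HCT-FU-c and 6.76% in HCT-Oxa-c. Among the 64 miRNAs with at least 1000 CPM on average the median CV was 25.4%, so an equally high level did not come with an equally small spread in most of them. The 3p arms, at 38.8% for miR-31-3p and 38.7% for miR-135b-3p, lay near the median of all tested miRNAs, and counting alone would give a CV of 15.3% and 26.7% at their depth, compared with 1.23% for miR-31-5p and 2.32% for miR-135b-5p.

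The small spread depended in part on the scaling. With RLE size factors the CV of miR-31-5p was 5.97% (1 miRNA lower) and that of miR-135b-5p 10.2% (14 lower). With total counts they rose to 14.2% (32 lower) and 18.7% (59 lower), against a median of 37.3%. Without replicate 3, which stood apart in each line, the CV was 4.37% for miR-31-5p (12 lower) and 2.22% for miR-135b-5p (2 lower), with a median of 17.5%. Both guide arms thus stayed among the less variable miRNAs under each of these settings, and miR-31-5p was the lowest of all with TMM over all 9 libraries.

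**Figure D2:**
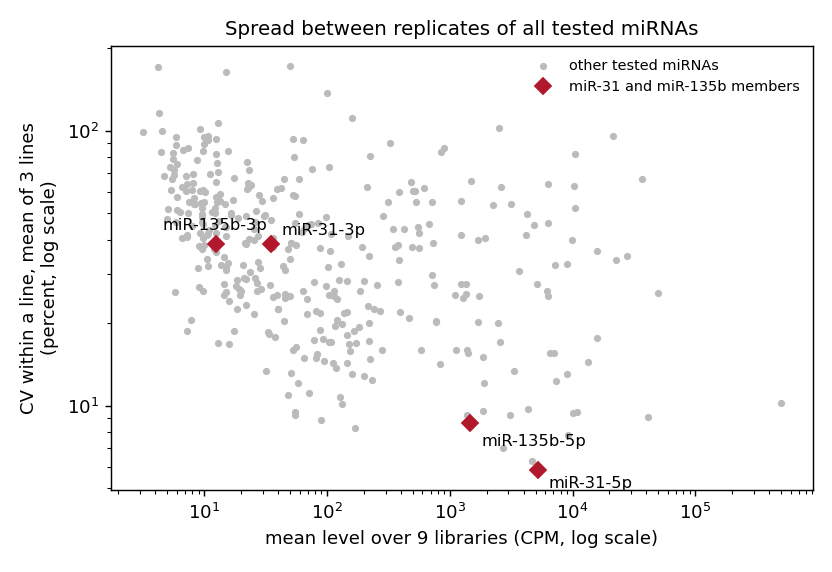
CV within a line, averaged over the 3 lines (vertical axis, percent, log scale), against the mean level over 9 libraries (horizontal axis, CPM, log scale) for the 367 tested miRNAs (grey) and the 4 tested members (red). miR-31-5p (5.83%) is the lowest point and miR-135b-5p (8.67%) is near it, while both 3p arms (38.8% and 38.7%) lie in the middle of the cloud.

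A ratio of counts within a library needs no normalization, and that of the guide arms was higher in HCT-Oxa-c than in both other lines. It combines the levels given above, which already went opposite ways in HCT-Oxa-c, so it is not separate evidence. The joint test of the lines, given below, did not pass after adjustment. How many other pairs of miRNAs differ between the lines in this way was not tested. miR-31-5p was counted 2.87, 2.98 and 3.50 times as often as miR-135b-5p in HCT116, 2.87, 3.26 and 3.03 times in HCT-FU-c, and 4.76, 4.35 and 5.30 times in HCT-Oxa-c. The lowest HCT-Oxa-c library lay above the highest library of the other lines, which overlapped each other. The means were 3.12 ± 0.336, 3.06 ± 0.194 and 4.80 ± 0.479 (SD, n = 3 each). HCT-Oxa-c exceeded HCT116 by 0.63 on the log2 scale (1.54-fold) and HCT-FU-c by 0.65 (1.57-fold), each with p = 0.10 in a two-sided exact permutation test, the smallest value that 3 against 3 libraries allow. HCT-FU-c and HCT116 differed by -0.024 (p = 0.9, same exact test).

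Over the 3 lines together, the exact permutation test over all 1680 assignments of the 9 libraries gave p = 0.0321 for this ratio, and 0.0964 after adjustment over the 3 ratios tested, which did not pass. Without HCT116 replicate 3 the adjusted p was 0.0429. Permuting within replicate numbers in the same exact test (216 assignments, smallest possible p = 0.0278) gave p = 0.111 and an adjusted value of 0.333. The difference had the same sign in each replicate number. HCT-Oxa-c minus HCT116 was 0.73, 0.55 and 0.60 on the log2 scale in replicates 1, 2 and 3, and HCT-Oxa-c minus HCT-FU-c was 0.73, 0.42 and 0.81. The pair was compared because these are the abundant guide arms among the members.

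The arm ratios, by contrast, varied as much among replicates as among lines. miR-31-5p was counted 209, 230 and 103 times as often as miR-31-3p in HCT116, 142, 238 and 117 times in HCT-FU-c, and 230, 157 and 92.8 times in HCT-Oxa-c. Replicate 3 had the lowest ratio in each line. The 3p arm made up 0.418% of the MIR31 counts (exact Clopper-Pearson 95% interval 0.304 to 0.560%) in the lowest library and 1.07% (0.820 to 1.36%) in the highest, which were HCT-FU-c replicate 2 and HCT-Oxa-c replicate 3. The lines did not separate (exact permutation p = 0.943, adjusted p = 0.943).

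For MIR135B the HCT116 libraries had 5p to 3p ratios of 196, 110 and 134, those of HCT-FU-c had 96.8, 115 and 123, and those of HCT-Oxa-c had 394, 107 and 58.1. The HCT-Oxa-c libraries enclosed all others, with a 3p share from 0.253% (0.0930 to 0.551%, exact Clopper-Pearson) in replicate 1 to 1.69% (1.02 to 2.63%) in replicate 3. The exact permutation test over the lines gave p = 0.854 (adjusted p = 0.943). In all 9 libraries the 5p arm was at least 58.1 times the 3p arm for both hairpins.

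**Figure D3:**
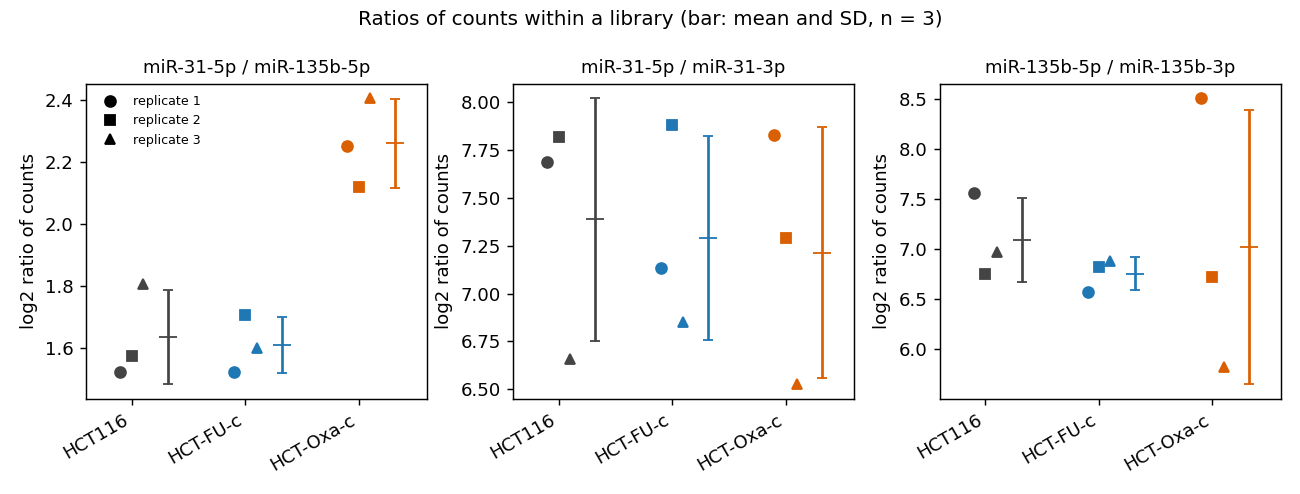
Log2 ratio of counts within each library (vertical axis) in the 3 lines (horizontal axis), with 1 symbol per replicate number and the mean and SD of n = 3 to the right; axes do not start at 0. The ratio of miR-31-5p to miR-135b-5p in HCT-Oxa-c lies above all libraries of the other lines, and the arm ratios overlap in the 3 lines.

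miR-135a-5p, which shares the seed of miR-135b-5p, was counted 5, 4 and 3 times in HCT-FU-c, 0, 1 and 0 times in HCT116, and 0, 2 and 0 times in HCT-Oxa-c. Every HCT-FU-c library was above every library of the other lines, at no more than 5 counts each. Summed over libraries and scaled to total counts, HCT-FU-c (12 counts) exceeded HCT116 (1 count) by a ratio of 12.2 with a 95% counting interval of 1.8 to 521, and HCT-Oxa-c (2 counts) by a ratio of 8.65 (1.93 to 79.6). These counting intervals leave out the spread among replicates. An exact permutation test of the miR-135a-5p share over the 1680 assignments gave an unadjusted p = 0.0357, and within replicate numbers p = 0.111, the smallest possible there. That test was not among those planned. In the edgeR fit of all listed miRNAs without a filter the log2 fold change of miR-135a-5p in HCT-FU-c versus HCT116 was 3.15 (SE 1.78, adjusted p = 0.875). At this depth a difference of miR-135a-5p was thus not established over the whole table.

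Relative to miR-135b-5p, which differs from it by C11U, miR-135a-5p made up 2.25, 1.24 and 2.22 counts per 1000 in HCT-FU-c. The other lines had at most 0.432 (HCT116) and 0.691 (HCT-Oxa-c) per 1000, and the 0 of 2546 counts in HCT116 replicate 1 allowed up to 1.45 per 1000 (exact Clopper-Pearson). The share of such counts that were misread miR-135b-5p was not tested. miR-135b-5p itself was estimated in HCT-FU-c at 1.07-fold its HCT116 level, with bounds of 0.778 and 1.48.

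Profiles over the 9 libraries most like that of miR-31-5p, by the root mean square difference of centred log2 CPM, were those of miR-29b-3p (0.105), miR-200c-3p (0.152) and miR-3615 (0.159), against a median of 0.586 over the tested miRNAs. For miR-135b-5p they were miR-103a-3p (0.154), miR-221-3p (0.165) and miR-378a-3p (0.174), with a median of 0.612. The difference between miR-31-5p and miR-135b-5p themselves was 0.319, and 48 other miRNAs were closer to miR-31-5p. The measure favours miRNAs with small spread and is given as a description.

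Other miRNAs known from colorectal carcinoma were read from the same fit. Of 14 miRNAs commonly reported higher in carcinoma than in mucosa, such as the miR-17-92 members and miR-21-5p, 12 were tested. With the line as factor none was called in either subline against HCT116. Between the sublines 2 were called, beside 4.36% of all tested miRNAs, and both were named after their values were seen. HCT-Oxa-c versus HCT-FU-c had a log2 fold change of 1.29 for miR-203a-3p (edgeR adjusted p = 0.0343) and 1.36 for miR-224-5p (adjusted p = 0.0201). The gap of miR-224-5p lay mostly in HCT-FU-c, with means of 173 CPM in HCT116, 79.1 in HCT-FU-c and 203 in HCT-Oxa-c. Its log2 fold change in HCT-FU-c versus HCT116 was -1.13 (edgeR adjusted p = 0.312, and 0.00081 with the block). The paper reported this miRNA as lowered in HCT-FU-c, by sequencing and by quantitative PCR. Over the 12, the median log2 fold change relative to HCT116 was 0.15 for HCT-Oxa-c and 0.16 for HCT-FU-c, compared with -0.012 and 0.024 over all tested miRNAs. With the block, HCT-Oxa-c had 2 of them higher and 1 lower than HCT116, beside 14.7% of all tested miRNAs called. HCT-FU-c had 1 higher and 2 lower, beside 5.45%. Between the sublines the block called 4 higher in HCT-Oxa-c (miR-182-5p, miR-183-5p, miR-203a-3p and miR-224-5p) and 4 lower (miR-17-5p, miR-18a-5p, miR-19b-3p and miR-20a-5p), beside 26.4% of all tested miRNAs. Of 12 miRNAs commonly reported lower, 7 were tested, and miR-30a-5p fell in HCT-Oxa-c, from a mean of 1467 ± 160 CPM to one of 38.0 ± 15.6 CPM (SD over 3 libraries). Its log2 fold change was -5.28 (SE 0.60, edgeR adjusted p = 0.00193), the 1 call among the 7 in that comparison, beside 2.45% of all tested miRNAs. With the block 2 of the 7 were lower than HCT116 in each subline, miR-30a-5p and miR-143-3p, and none was higher. The log2 fold changes of the 4 tested members against HCT116, from -0.34 to 0.52, were small beside that decrease.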

How the data were processed

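Total RNA of 3 lines with 3 biological replicates each was made into small RNA libraries (NEXTflex kit) and sequenced on an Illumina MiSeq. The authors deposited unnormalized read counts of mature miRNAs and a normalized signal, the count divided by a size factor per library, which was not used in tests. The submitters' processing notes name CASAVA 1.8, Bowtie 1.1.2, DESeq2 and GRCh38.p7. Their settings, such as how reads of near-identical miRNAs were assigned, are not given in the sources used here, and the study's Supplementary Methods were not used here.

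Counts were tested with edgeR 4.0.16 (R 4.3.3), with TMM, filterByExpr (minimum count 10, minimum total 15), a prior count of 0.125 and the line as factor in all 9 libraries. Benjamini-Hochberg adjustment covered the 367 miRNAs kept, and an adjusted p below 0.05 was a call. The code was tested on simulated counts. DESeq2 1.42.0 was an alternative. Ratios used a pseudocount of 0.5 on the log2 scale and exact permutation tests. Total counts ran from 856383 to 2207538 per library.

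Replicate numbers come from the labels. Deviations of same-numbered libraries from their line means correlated at 0.40 to 0.75 in all 9 pairs (different numbers -0.68 to 0.61). All negative values involved replicate 3. Between replicates 1 and 2, different numbers correlated at 0.41 to 0.61 and same numbers at 0.40 to 0.64. A pairing by number was thus not established beyond the shift of replicate 3, and the block was used as an alternative fit. The biological coefficient of variation was 0.458, and 0.174 with the block. The labels name no batch. The paper's methods give fewer libraries per sequencing run than the 9 compared, and the run of each library is not given in the sources used here. The p-values therefore measure the spread among replicate libraries of the same line, from which differences between runs cannot be separated.

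Named were all members, miRNAs sharing a member's seed, markers of epithelium, the 3 profiles nearest each guide arm and listed carcinoma miRNAs called against HCT116. Listed carcinoma miRNAs named for a call between the sublines were outside this plan, and were named after their values were seen. The members and lists were chosen with earlier results of these data known. Alternatives covered scaling, filter, tool, libraries fitted, pseudocount, the block and each library left out. Sequences are from RefSeq and positions from GENCODE 29.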

Additional observations from a re-analysis of the deposited data

Results flagged for a closer look

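miR-135b-5p had a log2 difference of -0.44 between HCT-Oxa-c and HCT-FU-c. It stood out because every HCT-Oxa-c library (1131 to 1294 CPM) lay below the HCT116 mean of 1545 CPM and every HCT-FU-c library (1607 to 1690 CPM) above it. That mean was lowered by HCT116 replicate 3 (1254 CPM), while HCT116 replicates 1 and 2 (1728 and 1652 CPM) were not below the HCT-FU-c range. With replicates 1 and 2 only, the log2 fold change of HCT-FU-c versus HCT116 was -0.055. The difference between the sublines was tested, with an edgeR adjusted p = 0.326, and with 0.0243 when the replicate number was a block. In that comparison the libraries of 22.9% of all tested miRNAs did not overlap, and 4.36% were called without the block and 26.4% with it.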

How the results depend on the processing

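None of the 4 tested members was called relative to HCT116 in any alternative run, and 1 was called in HCT-Oxa-c versus HCT-FU-c, miR-135b-5p, with the replicate block in edgeR, which changed no other call of a member. With the block, all called miRNAs went from 9 to 54, from 0 to 20 and from 16 to 97 in HCT-Oxa-c versus HCT116, HCT-FU-c versus HCT116 and HCT-Oxa-c versus HCT-FU-c. DESeq2 without the block called 23, 4 and 43. DESeq2 with the block (51, 23 and 85) and replicates 1 and 2 only (43, 13 and 67) were chosen after seeing the data. miR-31-5p kept its sign in all 19 alternatives of each comparison, with a log2 fold change of 0.22 to 0.37 in HCT-Oxa-c versus HCT116, and so did miR-135b-5p for HCT-Oxa-c versus HCT-FU-c (-0.62 to -0.33). The log2 fold change of miR-135b-3p in HCT-Oxa-c versus HCT116 reversed with total counts (-0.016), the replicate block (-0.13), DESeq2 with the block (-0.083), replicates 1 and 2 only (-0.57) and, with 1 library left out, ranged from -0.45 to 0.51. In the same runs with 1 library left out, miR-135b-3p ranged from -0.89 to 0.10 in HCT-Oxa-c versus HCT-FU-c and miR-31-3p from -0.021 to 0.66. In HCT-FU-c versus HCT116, miR-31-3p ranged from -0.058 to 0.53 and miR-135b-5p from -0.023 to 0.18, the latter at -0.055 with replicates 1 and 2 only. Leaving out 1 library gave log2 differences of HCT-Oxa-c minus HCT116 of 0.55 to 0.71 for the ratio of the guide arms, which passed the threshold without HCT116 replicate 3 (0.71, exact permutation adjusted p = 0.0429), of -0.54 to 0.17 for the MIR31 arm ratio and of -0.82 to 0.52 for that of MIR135B, which was 0.46 with replicates 1 and 2 only. The causes of these reversals were not tested. Requiring 10 counts in every library removed miR-135b-3p, which then had no value. Depth limits the 3p arms and miR-135a-5p, with at most 80, 28 and 5 counts per library.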
